A study of Mus musculus with 28 samples.

Results

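The question addressed here was whether loss of the histone demethylase JMJD3 (gene Kdm6b) changed gene expression differently in 2 T cell cultures that were both treated with DFMO. For every gene, the difference between knockout (KO) and wild-type (WT) cells in iTreg cultures was set against the same difference in Th17n cultures, a contrast called the interaction below. A positive interaction means that the KO effect was higher in iTreg than in Th17n. The contrast used the 14 DFMO-treated libraries of the 28 libraries in the series, and all genes entered it.

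The libraries were bulk RNA-seq of CD4 T cells from the spleen of C57BL/6 mice. Naive cells were sorted as CD4+CD44-CD62L+CD25- and activated on plates coated with antibodies to CD3 and CD28 (1 µg/ml each). iTreg cultures received TGF-beta 1 at 2 ng/ml, and Th17n (non-pathogenic Th17) cultures received the same TGF-beta 1 plus IL-6 at 25 ng/ml. Cells were taken at 68 h and sorted for viability. The 4 groups compared here were iTreg DFMO WT (4 libraries), iTreg DFMO KO (3 libraries), Th17n DFMO WT (4 libraries) and Th17n DFMO KO (3 libraries), all with 100 µM DFMO. KO animals carried floxed JMJD3 alleles (JMJD3 fl/fl) with CD4cre, a Cre that acts during T cell development in the thymus. Whether WT animals carried the floxed alleles or the Cre, and the age of the animals, is not given in the sources used here. Each of the 4 WT and 3 KO animals gave 1 library per culture, so both cultures of an animal are a pair.

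JMJD3 removes methyl groups from lysine 27 of histone H3, a mark that polycomb complexes place on silenced genes. DFMO (difluoromethylornithine) blocks ornithine decarboxylase, encoded by Odc1, the first enzyme of polyamine synthesis. TGF-beta alone turns activated naive CD4 cells toward Foxp3-expressing induced regulatory T cells, and IL-6 added to it, acting through the transcription factor STAT3, turns them toward Th17 cells that express Il17a. Interferon-gamma and the transcription factor T-bet (Tbx21) define the Th1 fate, which both of these culture conditions normally hold down.

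The total estimated count per DFMO library lay between 3233025 and 4732039. Levels are given below as CPM, counts scaled to a common library total. The first principal component (51.6% of the variance over the DFMO libraries) separated iTreg from Th17n. On the second (10.0%), iTreg WT 2 stood apart from the other iTreg WT libraries, with a score of -7.68 against 16.3 to 29.5, on the side of the iTreg KO libraries (-27.2 to -13.5). Summed CPM of 9 CD4 T cell markers was 3074 to 3940. Treg markers summed to 241 to 397 CPM in iTreg and 38.3 to 59.8 in Th17n, and Th17 markers to 2.30 to 17.7 CPM in iTreg and 343 to 917 in Th17n. Il17a and Il23r were at 0 in every iTreg DFMO library. In bulk RNA, fewer cells of a type and less RNA per cell cannot be told apart.

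Kdm6b itself was lower in KO in both cultures. It measured 41.9, 45.4, 59.2 and 49.7 CPM in iTreg WT animals 1 to 4 and 26.1, 19.9 and 27.7 CPM in iTreg KO animals 1 to 3. The Th17n libraries held 36.0, 55.1, 64.0 and 62.7 CPM in WT and 24.3, 26.7 and 33.0 CPM in KO. All KO libraries lay below all WT libraries within each culture. The log2 fold change was -1.01 ± 0.20 (SE) in iTreg (edgeR adjusted p = 0.00251) and -0.95 ± 0.19 in Th17n (adjusted p = 0.0076), and the interaction was -0.05 ± 0.28 (adjusted p = 0.996). On log2(TPM + 1), tested with limma, the falls were smaller and not called, -0.39 in iTreg (adjusted p = 0.317) and -0.32 in Th17n (adjusted p = 0.738), and on log2(TPM + 0.1) they were -0.46 and -0.36. The iTreg call was lost without animal KO2 and the Th17n call without animals KO1 or KO2 or the Th17n KO1 library, and the direction was kept throughout. Gene-level counts do not resolve the deleted exons. Odc1, the target of DFMO, measured 113 ± 10.7 (SD, n = 4) and 111 ± 5.83 CPM (SD, n = 3) in iTreg WT and KO, and 154 ± 35.7 and 160 ± 26.6 CPM in Th17n WT and KO, with an interaction of -0.08 ± 0.21.

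Deletion of JMJD3 changed more genes in iTreg than in Th17n at the same threshold, and for 21 genes the KO effect itself differed between the cultures. A gene was called when its Benjamini-Hochberg adjusted p in edgeR's quasi-likelihood test was under 0.05. In iTreg, 455 of 10985 tested genes were called (4.14%), 210 higher (1.91%) and 245 lower (2.23%) in KO. In Th17n, 112 were called (1.02%), 71 higher (0.646%) and 41 lower (0.373%). Both cultures called 50 genes, which is 11.0% of the iTreg calls and 44.6% of the Th17n calls, and 49 of these moved in the same direction. The interaction was called for 21 genes (0.191% of those tested), 11 higher (0.1%) and 10 lower (0.091%) in iTreg than in Th17n. Taking both cultures of an animal as a pair raised this to 46 (0.419%), 21 higher (0.191%) and 25 lower (0.228%), and these 46 held all 21. At an unadjusted p under 0.05 the interaction held 749 genes (6.82%).

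Most genes called in 1 culture only were therefore not shown to differ between cultures. Of 405 genes called in iTreg and not in Th17n, the interaction was called for 15, and of 62 called in Th17n and not in iTreg, for 4. The remaining pair were Gpr83, which moved in opposite directions, and Klf6, which fell in both. Across all tested genes the 2 KO effects had a Pearson r of 0.218, and of 0.392 over the 8355 genes with a mean of at least 10 CPM in a DFMO group. These are descriptions across genes, which are not independent, and both effects come from the same animals.

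**Figure D1:**
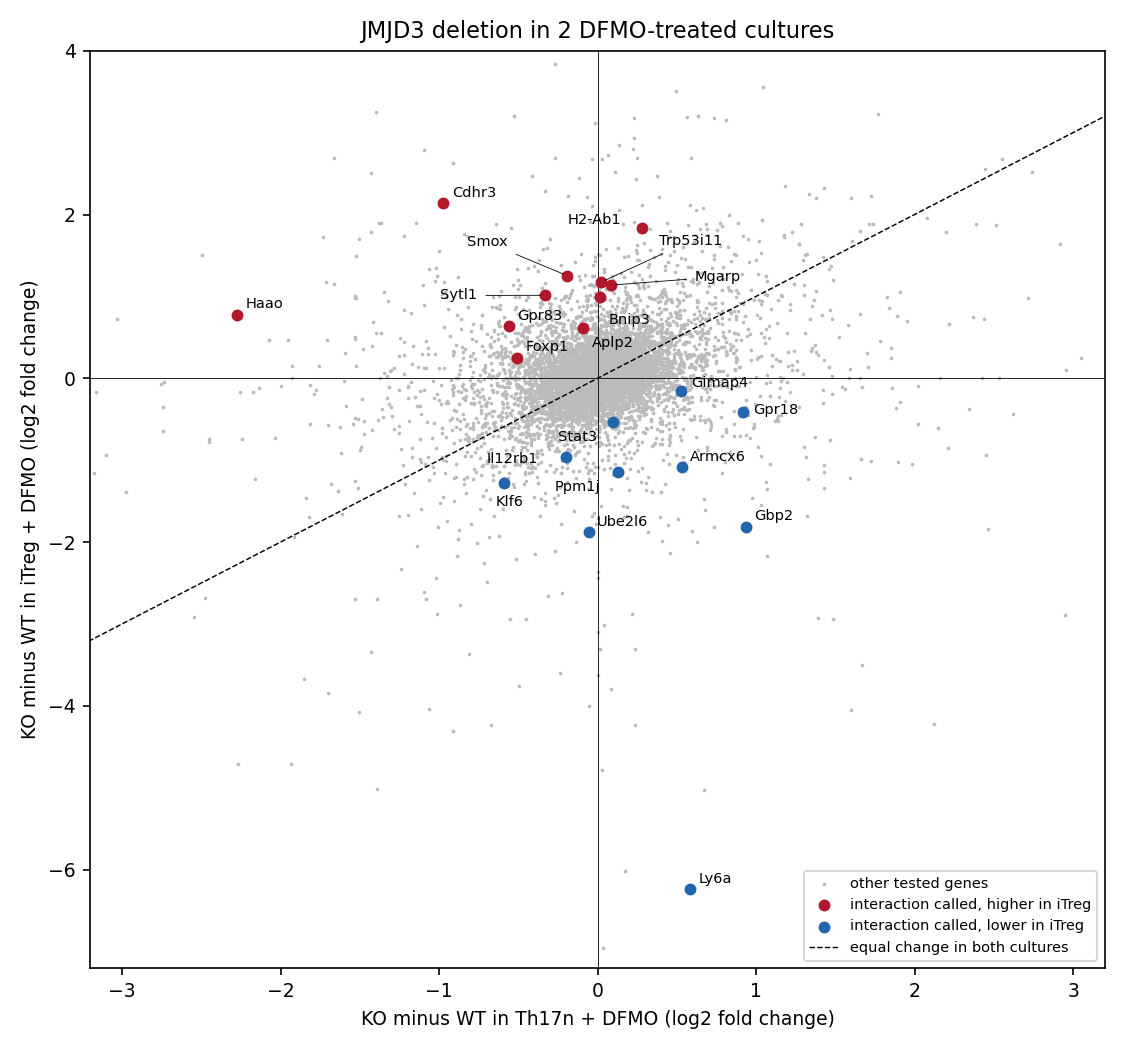
KO minus WT log2 fold change in Th17n (x axis) and iTreg (y axis) under DFMO, 1 point per tested gene. The 21 genes with a called interaction are coloured and named, the dashed line marks equal change in both cultures, and 19 genes lie outside the axes. Ly6a lies at -6.24 in iTreg and 0.58 in Th17n.

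Per animal, the difference between its own 2 cultures (iTreg minus Th17n, in log2 CPM) did not overlap between WT and KO animals for any of the 21 genes. Over all tested genes, 839 (7.64%) showed such separation, and 11.8% showed it between the KO and WT libraries of iTreg and 10.7% between those of Th17n. Since these genes were called on the same contrast, their separation is a description and no further support.

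**Figure D2:**
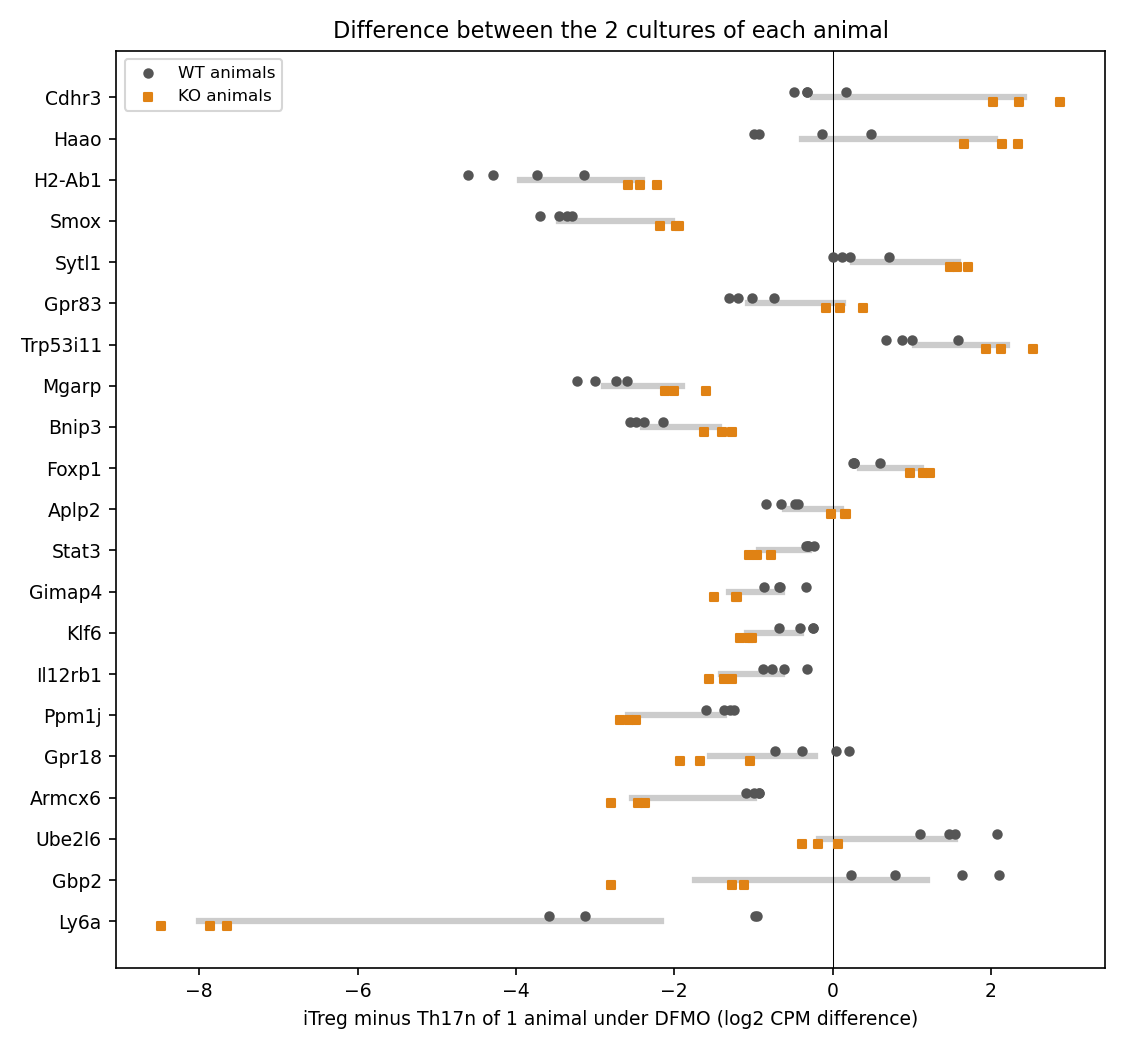
Difference between the iTreg and Th17n cultures of each animal under DFMO, in log2 CPM, for the 21 genes with a called interaction. Circles are the 4 WT animals, squares the 3 KO animals, and grey bars join the group means. For Ly6a the WT animals lie between -3.59 and -0.95 and the KO animals between -8.48 and -7.66.

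Ly6a, Gbp2 and Ube2l6, all known to be induced by interferon, were among the genes with a lower KO effect in iTreg. Ly6a (chr15:74994877-74998031, minus strand, GRCm38) encodes Sca-1, a surface protein that interferons induce on T cells. In iTreg it measured 191, 24.6, 229 and 31.3 CPM in WT animals 1 to 4 and 1.78, 0.677 and 2.46 CPM in KO animals 1 to 3. Its Th17n levels were 369, 302, 452 and 278 CPM in WT and 541, 432 and 603 CPM in KO. KO iTreg libraries were thus far below every other library, while the Th17n groups overlapped. Ly6a fell by 6.24 on the log2 scale in iTreg (75.7-fold, adjusted p = 9.97e-06), was 0.58 ± 0.43 higher in Th17n (adjusted p = 0.783), and had an interaction of -6.83 ± 0.93 (adjusted p = 0.000425). Ly6a belongs to a family of similar genes, so reads may be split among members.

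Gbp2 (chr3:142620602-142638008, plus strand) encodes a guanylate-binding GTPase induced by interferon-gamma. It measured 157, 200, 126 and 238 CPM in iTreg WT and 68.3, 19.4 and 68.8 CPM in iTreg KO. Th17n libraries measured 90.9, 63.9, 108 and 55.2 CPM in WT and 166, 138 and 150 CPM in KO. The KO libraries were lowest in iTreg and highest in Th17n, with no overlap in either culture. Gbp2 fell by 1.81 on the log2 scale in iTreg (adjusted p = 0.000322), was 0.94 ± 0.28 higher in Th17n (adjusted p = 0.121), and the interaction was -2.75 ± 0.41 (adjusted p = 0.000554). Ube2l6 (chr2:84798828-84810335), the conjugating enzyme for the ubiquitin-like protein ISG15, measured 18.7 to 22.2 CPM in iTreg WT and 3.84 to 7.07 CPM in iTreg KO. In Th17n its libraries lay between 4.84 and 8.84 CPM in WT and between 4.45 and 8.33 CPM in KO. The iTreg WT libraries thus stood above all others, and the interaction of Ube2l6 was -1.82 ± 0.33 (adjusted p = 0.0062).

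Of the 25 tested members of a list of interferon-stimulated genes, the interaction was called for Ly6a and Gbp2 only, both lower (Ube2l6 was not on the list). The list median was -0.29, beside -0.01 for all tested genes. In iTreg, 4 members were lower, among them Ly6a, Gbp2 and Bst2, and Isg20 was higher, and in Th17n Ly6c1 was higher. Over all tested genes, 2.23% were called lower and 1.91% higher in iTreg, and 0.646% higher in Th17n. The interaction was called lower for 0.091%. The list's median KO effect was 0.14 in iTreg and 0.40 in Th17n. Most members, Ifit1, Ifit3, Isg15, Irf7 and Oasl2 among them, were not called in either culture. Genes called only with the animal as a block, and picked for mention after their values were seen, included Gbp4 (interaction of -1.72 without the block) and Tapbp, a component of the MHC class I loading machinery (-0.76), both lower.

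The promoters of the called genes were searched for the letters of 2 interferon response elements, because several genes of the lower group are known interferon targets, a choice made after their values were seen. The motifs were GAAANNGAAA, an ISRE-like core, and TTCNNNGAA, a GAS-like core, on both strands. The windows ran from 250 bases before to 50 bases after the RefSeq start (GRCm38.p6). Of the 21 called genes 18 had an entry, and H2-Ab1, Il12rb1 and Ly6a had none. The ISRE-like letters were found in 2 of 8 lower genes and 0 of 10 higher genes, beside 3.44% of all 32851 promoters. The 2 were Gbp2, called lower in iTreg KO, and Gpr18, called higher in Th17n KO and not called in iTreg. The GAS-like letters were found in 1 of 8 lower and 1 of 10 higher genes, beside 8.30% of all promoters. A called gene counted as a match if any of its promoter entries matched, whereas the shares of all promoters are per entry. The counts and these shares are therefore not in the same unit. The 4 windows with a match are shown 5′ to 3′ on the gene's strand, with the matching letters in capitals, Gbp2 and Gpr18 with the ISRE-like and Armcx6 and Trp53i11 with the GAS-like letters. The match began 59 bases before the start in Gbp2 (chr3:142620413-142620712), 41 in Gpr18 (chr14:121915839-121916138, minus strand), 239 in Armcx6 (chrX:134751370-134751669, minus strand) and 199 in Trp53i11 (chr2:93187298-93187597). A match describes the letters and shows no binding.
Gbp2: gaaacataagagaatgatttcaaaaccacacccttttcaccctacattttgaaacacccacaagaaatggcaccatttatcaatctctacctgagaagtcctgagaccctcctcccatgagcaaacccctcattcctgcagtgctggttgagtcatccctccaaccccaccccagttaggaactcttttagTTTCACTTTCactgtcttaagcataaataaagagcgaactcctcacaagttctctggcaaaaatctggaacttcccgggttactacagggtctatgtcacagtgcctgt
Gpr18: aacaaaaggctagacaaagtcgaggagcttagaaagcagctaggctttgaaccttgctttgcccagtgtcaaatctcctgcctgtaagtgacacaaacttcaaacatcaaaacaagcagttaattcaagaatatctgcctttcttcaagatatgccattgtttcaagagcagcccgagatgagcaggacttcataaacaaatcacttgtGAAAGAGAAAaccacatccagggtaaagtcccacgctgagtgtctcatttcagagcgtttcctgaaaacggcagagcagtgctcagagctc
Armcx6: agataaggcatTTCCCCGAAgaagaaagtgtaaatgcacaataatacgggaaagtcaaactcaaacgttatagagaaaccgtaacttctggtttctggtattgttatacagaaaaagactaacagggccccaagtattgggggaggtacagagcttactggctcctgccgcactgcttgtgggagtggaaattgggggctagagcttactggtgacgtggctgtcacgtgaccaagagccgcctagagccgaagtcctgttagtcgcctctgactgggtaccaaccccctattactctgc
Trp53i11: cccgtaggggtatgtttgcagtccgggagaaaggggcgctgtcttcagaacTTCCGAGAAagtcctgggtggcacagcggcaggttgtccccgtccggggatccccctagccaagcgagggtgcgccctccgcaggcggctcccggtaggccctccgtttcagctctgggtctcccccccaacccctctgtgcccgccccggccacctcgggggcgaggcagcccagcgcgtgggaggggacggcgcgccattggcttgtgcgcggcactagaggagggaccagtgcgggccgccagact

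Stat3 and Il12rb1, which carry cytokine signals, fell in iTreg KO cells, and their KO effects differed between the cultures. Stat3 (chr11:100885098-100939540, minus strand) mediates the response to IL-6. It measured 386, 369, 354 and 378 CPM in iTreg WT and 269, 240 and 259 CPM in iTreg KO. Levels in Th17n were 479, 465, 439 and 446 CPM in WT and 520, 501 and 444 CPM in KO. The iTreg groups were clearly apart and the Th17n groups overlapped. The fall in iTreg was 1.45-fold (log2 -0.54 ± 0.09, adjusted p = 0.000236), the Th17n change was 0.09 ± 0.08 (adjusted p = 0.869) and the interaction -0.63 ± 0.12 (adjusted p = 0.012). Il12rb1 (chr8:70808449-70821424) encodes the subunit shared by the receptors for IL-12 and IL-23. It measured 83.1 to 102 CPM in iTreg WT and 44.7 to 51.7 CPM in iTreg KO, while Th17n libraries lay at 128 to 179 CPM in WT and 124 to 135 CPM in KO. Its interaction was -0.76 ± 0.15 (adjusted p = 0.019). Stat3 was the 1 called member of 21 tested genes of the Th17 programme and of 17 of the IL-6 and STAT3 response. Over all tested genes, the interaction was called for 0.191%. With the animal as a block, the chemokine Ccl20 of the Th17 programme was called too (-2.61, adjusted p = 0.0368). The medians of these lists were both -0.09.

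**Figure D3:**
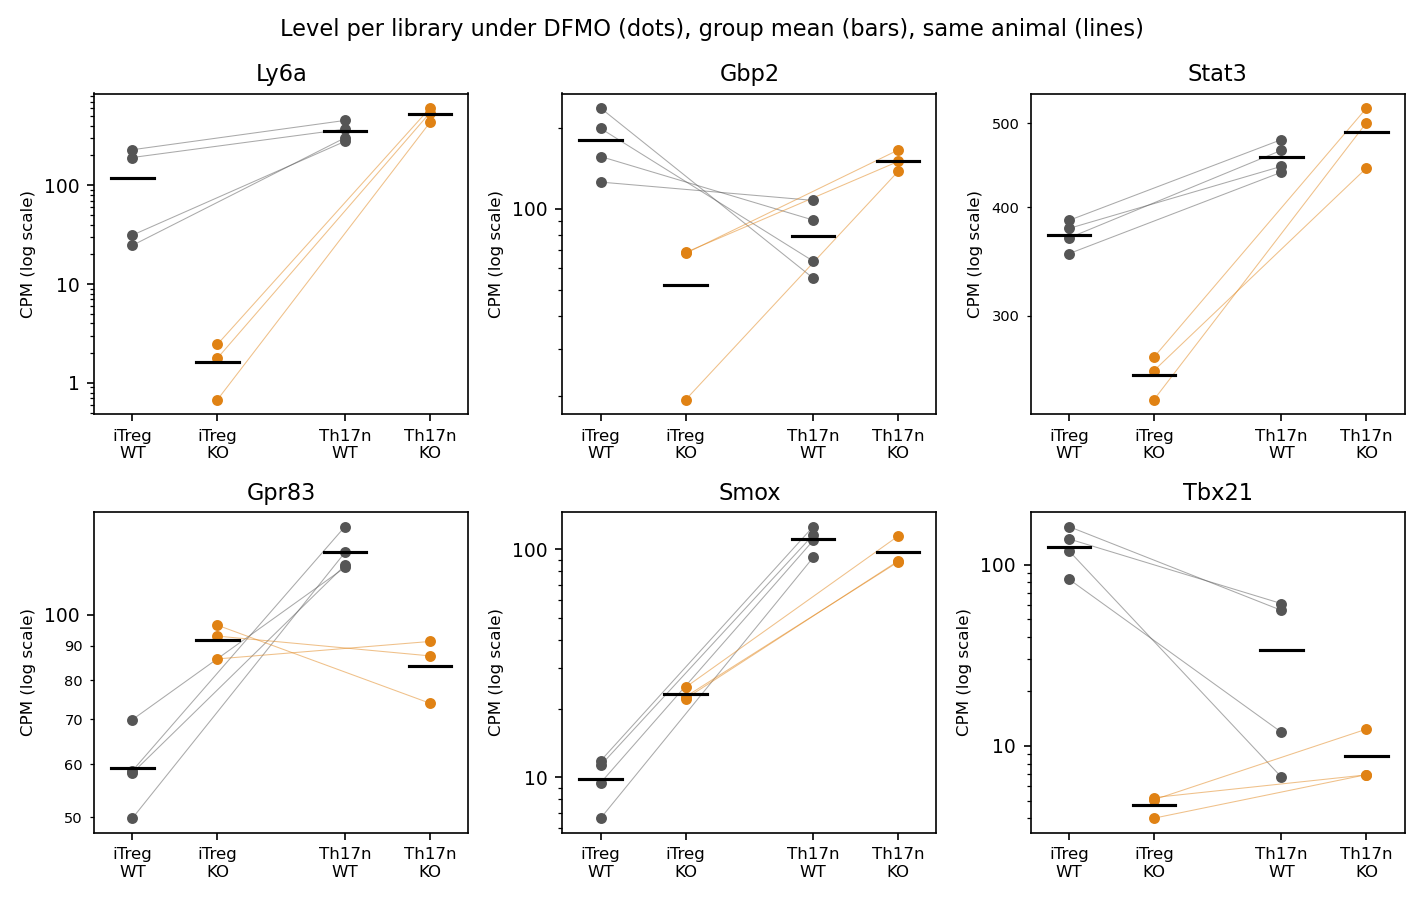
CPM per library on a log axis for 6 genes in the 4 DFMO groups, where dots are libraries, bars group means and lines join the 2 cultures of an animal (grey WT, orange KO). In iTreg the KO dots lie below all WT dots for Ly6a, Gbp2, Stat3 and Tbx21 and above them for Gpr83 and Smox. The interaction was called for all but Tbx21.

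Th1 genes fell in iTreg KO cells, and their interaction was mostly below the threshold. Of 17 tested members of the Th1 programme, 12 were lower and 0 higher in iTreg KO, beside 2.23% of all genes called lower there. In Th17n 0 were lower and 1, Ccl5, was higher, beside 0.373% and 0.646% of all tested genes. The list's median KO effect was -1.07 in iTreg and -0.52 in Th17n. Tbx21, the Th1 master regulator T-bet, measured 139, 83.1, 162 and 119 CPM in iTreg WT and 5.05, 5.19 and 3.99 CPM in iTreg KO. The Th17n libraries held 61.0, 11.9, 55.9 and 6.73 CPM in WT and 12.4, 6.93 and 6.95 CPM in KO. All iTreg WT libraries were far above all iTreg KO libraries, and in Th17n WT animals 2 and 4 were already as low as KO. The fall was 26.1-fold in iTreg (log2 -4.71 ± 0.60, adjusted p = 9.78e-06). In Th17n the change was -1.94 ± 0.55 (adjusted p = 0.0972), and the interaction was -2.77 ± 0.85 (adjusted p = 0.258).

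Ifng, the Th1 cytokine, measured 61.9, 0.891, 76.4 and 12.2 CPM in iTreg WT and 0 in every KO library of both cultures. Against a floor of 3 counts over the KO group, Ifng was at least 141-fold lower in iTreg KO, with the WT libraries pooled (534 counts). This bound holds for the pooled group and not for each animal. It rests mainly on WT1 and WT3, and WT2 at 0.891 CPM was close to the floor of 0.265 CPM. In Th17n WT the group held 13 counts, so Ifng was at least 3.62-fold lower in Th17n KO by the same floor. With KO at 0 in both cultures, an interaction cannot be given for Ifng. Gzmb, a cytotoxic granule protease, measured 58.8, 12.2, 93.8 and 13.9 CPM in iTreg WT and 1.35 to 3.56 CPM in KO, beside 1.05 to 3.90 CPM in all Th17n libraries. Gzmb fell by 4.23 on the log2 scale in iTreg (adjusted p = 0.000351). Nkg7, a granule membrane protein, fell by 2.60 in iTreg, from 210 ± 121 to 34.7 ± 5.55 CPM, and Th17n libraries held at most 3.30 CPM. For Ly6a, Ifng, Gzmb and Nkg7 alike, WT animals 2 and 4 were the lower pair in iTreg, whereas for Gbp2 they were the higher pair.

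In the interaction 16 of the 17 Th1 members were negative, with a median of -1.06. Without Ifng and Eomes, which were at 0 in a whole group, the median was -0.86 over 15 genes. Il12rb1 was the only member called, beside 0.191% of all tested genes. With the animal as a block 4 were called, among them Tbx21 (adjusted p = 0.0192) and Il12rb2 (adjusted p = 0.00432), beside 0.419% of all tested genes. The NK cell marker list moved with these genes in iTreg, at 5.64 to 11.0 CPM in WT and 0.594 to 2.15 in KO. In iTreg all of this came from Eomes, a T-box factor that Th1 and memory T cells also use, since Ncr1, Klrb1c, Klra8 and Klra4 were at 0 in every DFMO library. The dendritic cell list also moved, from 39.8 to 49.1 CPM in iTreg WT to 20.6 to 29.3 in KO. This was mostly through Batf3 (35.9 and 16.8 CPM), with Itgax, Siglech and Clec9a at 0 in iTreg. The list moved in Th17n too, from 26.9 to 40.6 CPM in WT to 22.7 to 23.8 in KO. Batf3 averaged 31.3 and 19.9 CPM there. The part of other cell types in these falls was not tested beyond these values.

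**Figure D4:**
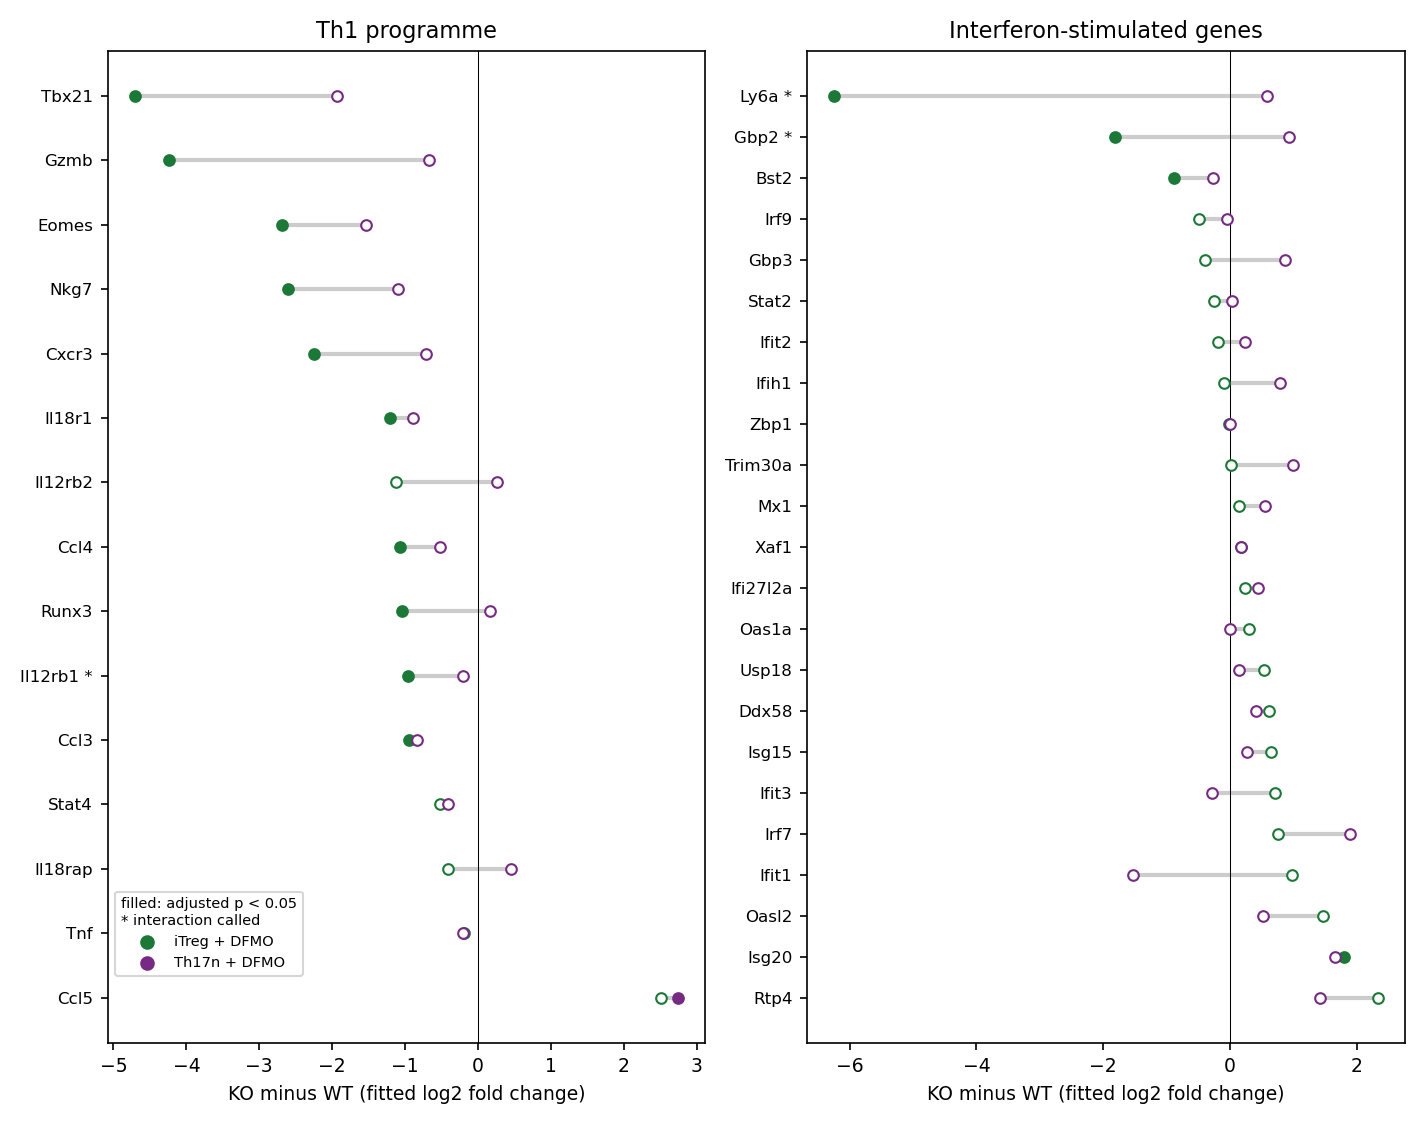
KO minus WT fitted log2 fold change of the Th1 programme (left) and of interferon-stimulated genes (right) in iTreg and Th17n under DFMO, filled where the adjusted p was under 0.05. Ifng and Ly6c1, with every iTreg KO library at 0, are among the members not drawn, and an asterisk marks a called interaction (Il12rb1, Ly6a, Gbp2). Eomes and Oas1a have a Th17n group at 0, so their Th17n points are fitted values and no bounds. In iTreg most Th1 members lie left of 0, Tbx21 farthest at -4.71.

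Among receptors of regulatory and other T cells, Gpr83 was the 1 gene called in both cultures in opposite directions. Gpr83 (chr9:14860210-14870789) is a G protein-coupled receptor known as a marker of Treg cells. It measured 49.9, 58.2, 58.6 and 69.9 CPM in iTreg WT and 93.0, 86.0 and 96.5 CPM in iTreg KO. Its Th17n levels were 124, 118, 135 and 118 CPM in WT and 86.9, 91.3 and 73.9 CPM in KO. All KO libraries thus lay between the levels of the WT iTreg and WT Th17n libraries. Gpr83 rose by 0.64 ± 0.13 in iTreg (adjusted p = 0.00195) and fell by 0.56 in Th17n (adjusted p = 0.0141), with an interaction of 1.20 ± 0.17 (adjusted p = 0.000554). The call in Th17n, unlike the interaction, was lost without animals KO1, KO3 or WT3 or their Th17n libraries.

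Gpr18 (chr14:121911253-121915781, minus strand), another G protein-coupled receptor of lymphocytes, was called in Th17n and not in iTreg. It measured 32.3, 48.4, 48.1 and 49.0 CPM in Th17n WT and 79.2, 83.4 and 89.9 CPM in Th17n KO, whereas iTreg libraries held 29.1 to 49.6 CPM in WT and 21.4 to 38.3 CPM in KO. The Th17n groups were apart and the iTreg groups overlapped. Gpr18 rose by 0.92 ± 0.15 in Th17n (adjusted p = 0.000776). Its iTreg change of -0.41 ± 0.17 was not called (edgeR adjusted p = 0.197), and the interaction was -1.33 ± 0.22 (adjusted p = 0.00322). H2-Ab1 (chr17:34257689-34269419), the beta chain of an MHC class II molecule, measured 6.39, 2.97, 2.41 and 5.21 CPM in iTreg WT and 14.3, 16 and 15.7 CPM in iTreg KO. Th17n libraries measured 60.7 to 75.9 CPM in WT and 76.4 to 88.0 CPM in KO. It rose 3.56-fold in iTreg (adjusted p = 2.16e-05), with an interaction of 1.55 ± 0.29 (adjusted p = 0.009). Markers of B cells, which are MHC class II positive, summed to 10.4 to 18.1 CPM in iTreg WT and 16.7 to 25.8 in iTreg KO, largely through Cd79b. In Th17n, where H2-Ab1 was highest, they summed to 3.96 to 8.34 CPM, and their part in the result was not tested.

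Foxp3, the regulator that defines Treg cells, was higher in KO iTreg but its interaction was not called. It measured 190, 219, 213 and 309 CPM in iTreg WT and 382, 355 and 318 CPM in iTreg KO, without overlap, and 28.9 to 40.8 CPM in all Th17n libraries. It rose by 0.60 ± 0.17 in iTreg (adjusted p = 0.041), and the interaction was 0.69 ± 0.27 (adjusted p = 0.517). The call in iTreg was lost without any 1 KO animal, animals WT1, WT2 or WT3, or the iTreg libraries of KO1, KO2, WT1, WT2 or WT3. Of 21 tested genes of the Treg programme, Foxp3, Gpr83, Il2ra and Nt5e were higher and Ikzf2 and Entpd1 lower in iTreg KO. In Th17n KO, Ctla4, Gpr83 and Ikzf2 were lower. The members thus did not move in 1 direction. Over all tested genes, 1.91% were called higher and 2.23% lower in iTreg, 0.373% lower in Th17n, and 0.191% in the interaction. The list's median interaction was 0.15, with only Gpr83 called, and with the animal as a block Tnfrsf9 as well (0.91, adjusted p = 0.0112). Ikzf2 (Helios) fell in both cultures, by 1.65 on the log2 scale in iTreg and by 1.61 in Th17n, with an interaction of -0.04 ± 0.48.

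Il17a, Il17f and Il23r had no called interaction, and their iTreg levels at or near 0 left little room for a call. Il17a measured 36.8, 27.5, 45.3 and 112 CPM in Th17n WT and 26.6, 42.8 and 34.5 CPM in Th17n KO, with overlapping groups, and no fold can be given against the iTreg libraries at 0. Il23r measured 3.18 to 5.06 CPM in Th17n WT and 3.83 to 5.19 CPM in Th17n KO. Il17f stood at 502 ± 223 (SD, n = 4) and 597 ± 45.4 (SD, n = 3) CPM in Th17n WT and KO and at no more than 2.93 CPM in iTreg, and its interaction was 0.57 ± 1.43. The standard error of Il17f leaves room for a sizeable difference in either direction.

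Of 22 tested genes of polyamine metabolism, Smox was the 1 with a called interaction, beside 0.191% of all tested genes. Smox (chr2:131491496-131525922) encodes spermine oxidase, which turns spermine back into spermidine. It measured 9.46, 11.3, 6.62 and 11.8 CPM in iTreg WT and 22.6, 24.8 and 22.1 CPM in iTreg KO. Levels in Th17n were 109, 116, 92.1 and 126 CPM in WT and 88.0, 114 and 88.8 CPM in KO. The iTreg groups were apart, both were far below Th17n, and the Th17n groups overlapped. Smox rose 2.38-fold in iTreg (log2 1.25 ± 0.25, adjusted p = 0.00206), the Th17n change was -0.19 ± 0.17 (adjusted p = 0.867), and the interaction was 1.44 ± 0.30 (adjusted p = 0.0268). The list's median interaction was -0.08. Sat1, which acetylates polyamines for export, and Srm, spermidine synthase, had interactions of 0.01 ± 0.13 and 0.00 ± 0.22.

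Among genes of mitochondria and stress, Bnip3 and Mgarp rose in iTreg KO toward the higher Th17n level. Bnip3 (chr7:138890836-138909519, minus strand), a receptor that marks mitochondria for autophagy, measured 37.6, 37.1, 47.8 and 39.3 CPM in iTreg WT and 70.7, 93.0 and 77.4 CPM in iTreg KO, beside 196 to 235 CPM in all Th17n libraries. It rose 1.99-fold in iTreg (adjusted p = 9.78e-06), was 0.01 ± 0.11 different in Th17n, and had an interaction of 0.98 ± 0.17 (adjusted p = 0.00449). Mgarp (chr3:51388412-51396738, minus strand), a mitochondrial membrane protein, measured 4.52 to 6.32 CPM in iTreg WT, 10.1 to 16 CPM in iTreg KO and 41.1 to 51.0 CPM in Th17n. Its interaction was 1.05 ± 0.22 (adjusted p = 0.0268). Trp53i11 (chr2:93187548-93201759), a p53-inducible gene, measured 46.5, 67.4, 50.5 and 76.1 CPM in iTreg WT and 120, 152 and 133 CPM in iTreg KO. Its Th17n libraries lay at 22.5 to 39.1 CPM, and the interaction was 1.15 ± 0.23 (adjusted p = 0.0174). For Trp53i11, unlike Bnip3, Mgarp, Smox and H2-Ab1, the KO level in iTreg moved away from the Th17n level.

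Sytl1 (chr4:133253090-133263113, minus strand), an adaptor of secretory vesicles, measured 25.1, 30.3, 29.2 and 35.5 CPM in iTreg WT and 62.4, 60.0 and 58.4 CPM in iTreg KO. In Th17n it lay at 21.5 to 28 CPM in WT and 17.5 to 22.1 CPM in KO, where the groups overlapped. Sytl1 rose 2.02-fold in iTreg (adjusted p = 1.45e-05), with an interaction of 1.35 ± 0.20 (adjusted p = 0.000554). Aplp2 (chr9:31149557-31211815, minus strand), a membrane protein of the amyloid precursor family, measured 69.3 to 92.6 CPM in iTreg WT and 117 to 137 CPM in iTreg KO, and 105 to 126 CPM in Th17n. Its interaction was 0.71 ± 0.14 (adjusted p = 0.019). In both genes the KO iTreg libraries lay above all WT iTreg libraries.

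Ppm1j and Armcx6 were lower in iTreg KO. Ppm1j (chr3:104781056-104786018), a phosphatase of the PP2C family, measured 12.5, 11.6, 12.9 and 14.6 CPM in iTreg WT and 5.94, 5.64 and 5.84 CPM in iTreg KO, and 31.5 to 40.4 CPM in Th17n. It fell by 1.15 on the log2 scale in iTreg (adjusted p = 5.33e-05), and the interaction was -1.27 ± 0.20 (adjusted p = 0.00115). On log2(TPM + 1) the interaction of Ppm1j was -0.47 (limma adjusted p = 0.679) and on log2(TPM + 0.1) -0.57 (adjusted p = 0.582), neither called. Armcx6 (chrX:134748461-134751417, minus strand), an armadillo-repeat gene, measured 9.80 to 13.6 CPM in iTreg WT and 4.92 to 6.77 CPM in iTreg KO, but 21.6 to 26.2 CPM in Th17n WT and 29.5 to 40.3 CPM in Th17n KO. KO was below WT in iTreg and above it in Th17n, with no overlap in either. Armcx6 fell in iTreg (-1.08 ± 0.24, adjusted p = 0.00557), the Th17n change of 0.53 ± 0.17 was not called (adjusted p = 0.154), and the interaction was -1.61 ± 0.29 (adjusted p = 0.00589).

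For 3 further genes at a mean of at least 10 CPM, the interaction was just inside the threshold, with an adjusted p of 0.0466 each. Klf6 (chr13:5861482-5870394), a zinc-finger transcription factor, fell in both cultures, more in iTreg. It measured 189 to 259 CPM in WT and 80.8 to 102 CPM in KO in iTreg, and 287 to 307 CPM in WT and 182 to 207 CPM in KO in Th17n. The fall was 2.43-fold in iTreg and 1.5-fold in Th17n, and the interaction was -0.69 ± 0.15. Foxp1 (chr6:98925338-99522721, minus strand), a factor that keeps T cells quiescent, fell by 0.51 in Th17n (adjusted p = 0.0288), from 162 ± 22 to 114 ± 18.2 CPM, and was 0.25 ± 0.12 higher in iTreg (adjusted p = 0.267). Its interaction was 0.76 ± 0.17, and the Th17n call was lost without animals KO1, KO2, WT3 or WT4 or their Th17n libraries. Gimap4 (chr6:48684549-48692060), a GTPase of lymphocytes, rose by 0.53 ± 0.10 in Th17n, from 148 ± 3.97 to 213 ± 9.43 CPM, and was -0.16 ± 0.11 in iTreg (adjusted p = 0.522). Its interaction was -0.68 ± 0.15. Hbp1, a transcriptional repressor just outside the threshold, had an interaction of 1.05 ± 0.23 (adjusted p = 0.0517), and of 1.06 with the animal as a block, where it was called (adjusted p = 0.0405).

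The 2 called genes below 10 CPM, named after their values were seen, were Haao and Cdhr3. Haao (chr17:83831156-83847963, minus strand) encodes 3-hydroxyanthranilate dioxygenase of the kynurenine pathway, which leads from tryptophan to NAD. It measured 1.86, 3.30, 4.68 and 5.38 CPM in Th17n WT and 0.450, 0.989 and 0.842 CPM in Th17n KO, but 1.48 to 4.21 CPM in iTreg WT and 4.29 to 5.53 CPM in iTreg KO. Th17n KO libraries were lowest and iTreg KO libraries high, and the interaction was 3.05 ± 0.54 (adjusted p = 0.00484). The size of the Haao interaction rests on few reads, with 2.02, 4.06 and 4.0 estimated counts in Th17n KO and 7.04 to 20.0 in Th17n WT. Qprt, the enzyme that follows in the same pathway, was called only with the animal as a block (interaction of 2.28 with the block, 2.25 ± 0.51 without, adjusted p = 0.0458 and 0.0601). Its means were 2.15 and 4.78 CPM in iTreg WT and KO and 3.47 and 1.56 CPM in Th17n WT and KO. Cdhr3 (chr12:33033796-33092875, minus strand), a cadherin-related gene, measured 1.39 to 2.30 CPM in iTreg WT and 6.83 to 9.70 CPM in iTreg KO, and 0.631 to 3.45 CPM in Th17n. Its interaction was 3.11 ± 0.61 (adjusted p = 0.0155).

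How far these calls rest on single libraries was measured by leaving out each of the 14 libraries and each of the 7 animals in turn. All 21 genes kept their sign in every one of these 21 fits. Ly6a, Gbp2, Gpr83, Sytl1, Bnip3 and Ppm1j kept their call in every one as well, and the interaction of Ly6a ranged from -7.23 to -6.31, of Gbp2 from -3.06 to -2.33 and of Gpr83 from 1.09 to 1.31. The number of called genes was 7 without animal KO3, 8 without KO1, 13 without KO2 and 37 without WT2, and it was 10 without the iTreg KO2 library and 11 without the Th17n KO1 library. Leaving out the iTreg WT2 library, which stood apart in the second component, gave 28 calls, which held 20 of the 21.

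The other 15 genes lost their call in at least 1 of the fits. Armcx6 lost it without animal KO1, Gpr18 without KO2 or KO3, and Haao without KO1 or KO3. H2-Ab1 lost it without any 1 KO animal or the iTreg KO2 library, and Ube2l6 without animal KO1 or KO3 or the Th17n KO1 or iTreg KO2 library. Stat3 lost it without any 1 KO animal, animal WT3, or the Th17n KO1 or iTreg KO2 library. Cdhr3 lost it without animals KO1, KO3 or WT1 or the Th17n KO1, KO3 or WT1 or iTreg KO2 library, and Trp53i11 without animals KO1, KO3, WT1 or WT3 or the Th17n KO1, KO3 or WT2 or iTreg KO2 library. Aplp2 lost it without any 1 KO animal, animals WT1 or WT3, or the Th17n KO3 or WT4 or iTreg KO2 library. Il12rb1 lost it without any 1 KO animal, animal WT3, or the Th17n KO1, KO2 or WT4 or iTreg KO2 or WT1 library. Smox lost it without any 1 KO animal, animal WT3, the Th17n KO1, KO3 or WT4 library, or the iTreg KO1, KO2, WT1 or WT3 library, with an interaction of 1.31 to 1.58 throughout.

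Mgarp and Foxp1 kept their call in 8 of the 21 fits, Klf6 in 4 and Gimap4 in 3. Mgarp kept it without animals WT2 or WT3, the Th17n KO2, WT2 or WT3 library, or the iTreg KO3, WT2 or WT3 library. Foxp1 kept it without animal WT2, the Th17n KO3, WT1 or WT2 library, or the iTreg KO1, WT2, WT3 or WT4 library. Klf6 kept it without animals WT2 or WT4 or the iTreg KO3 or WT2 library, and Gimap4 without animal WT4 or the iTreg WT3 or WT4 library. Their interactions stayed between 0.84 and 1.18 for Mgarp, 0.65 and 0.88 for Foxp1, -0.77 and -0.60 for Klf6, and -0.75 and -0.57 for Gimap4.

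With the 14 DFMO libraries fitted alone, 16 genes were called, 8 each way, which held 11 of the 21. Those that lost their call there were Trp53i11, Mgarp, Foxp1, Aplp2, Haao, Klf6, Ube2l6, Gpr18, Il12rb1 and Gimap4, with adjusted p from 0.0595 to 0.123 and nearly unchanged sizes (Trp53i11 at 1.15 and Gimap4 at -0.69). On log2(TPM + 1) 30 genes were called, which held 14 of the 21. Smox (0.96, limma adjusted p = 0.496), Foxp1, Aplp2, Ppm1j, Il12rb1, Gimap4 and Cdhr3 lost their call on this scale and on log2(TPM + 0.1). Klf6 also lost it with RLE size factors (adjusted p = 0.0532).

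The other pathway lists described broad processes, and 28 of 34 lists had 0 members with a called interaction. The 6 lists with a called member together held 6 distinct called genes among 609 distinct tested genes of all lists, beside 0.191% of all tested genes. With the animal as a block 25 lists had 0, since T cell activation receptors (Tnfrsf9), chemokines (Ccl20) and adhesion (Emb) each gained 1 called member. In the ATF4 stress response, which serves amino acid supply, 12 of 24 tested genes were lower and 0 higher in iTreg KO, and Atf3 and Chac1 were lower in Th17n KO, beside 2.23% of all tested genes called lower in iTreg and 0.373% in Th17n. Atf3 was -1.82 in iTreg and -1.01 in Th17n. No member had a called interaction, the list's median being -0.15, so this fall was not shown to differ between the cultures. The count of 12 ranged from 5 to 14 with 1 library or animal left out, and was 5 without animal KO1 or its iTreg library, 6 without WT3 or its iTreg library and 7 without animal WT1. In ribosome biogenesis, 29 of 32 tested genes had a negative interaction (median -0.11), and in the G2 and M phase list 24 of 27 had a positive one (median 0.19). In glycolysis 19 of 23 and in cholesterol synthesis 19 of 21 were positive (medians 0.15 and 0.17). None of these members was called, the members of a list vary together within a library, and 5378 of 10985 tested genes had a positive interaction. These counts are therefore descriptions.

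Other genes changed in the same direction in both cultures. The genes named are from the 5 each way with a mean of at least 10 CPM that were largest by the smaller of their 2 changes. Higher in KO were Ecm1, an extracellular matrix protein that T cells also secrete (log2 1.96 in iTreg and 2.08 in Th17n), Sardh (1.78 and 2.20), Cd101 (2.20 and 1.60) and Dnah8 (1.64 and 1.27). Lower in KO were Mid1 (-2.91 and -2.54), Ikzf2, the adhesion receptor and activation marker Cd44 (-1.68 and -1.19), Timd2 (-1.25 and -1.06) and Rgs2 (-1.02 and -1.11). Over 27 alternatives no call of Ecm1 or Cd44 was lost in either culture. In Th17n the call was lost in 18 for Dnah8, 12 for Sardh, 7 for Cd101, 6 each for Rgs2 and Timd2, 4 for Ikzf2 and 2 for Mid1. In iTreg it was lost in 15 for Rgs2, 11 for Timd2 and 2 for Ikzf2, and in none for Sardh, Cd101, Dnah8 and Mid1. The interaction was called for none of the 10. Cd44, for example, stood at 192 ± 27.6 and 60.0 ± 13.7 CPM in iTreg WT and KO and at 107 ± 14.9 and 46.9 ± 3.78 CPM in Th17n WT and KO, with an interaction of -0.48 ± 0.24 (adjusted p = 0.747).

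How far apart the 2 DFMO cultures of an animal lay in lineage was measured with a score, compared between KO and WT animals. Lineage genes were those that differed at least 2-fold between iTreg and Th17n in the untreated cultures of both genotypes, 353 higher in iTreg and 668 higher in Th17n. The score was the mean difference between the 2 DFMO cultures of an animal over these 1021 genes, in log2 CPM, signed by lineage. It was 1.40, 1.54, 1.41 and 1.56 in WT animals 1 to 4 and 1.54, 1.57 and 1.53 in KO animals 1 to 3. The means were 1.48 ± 0.0881 (SD, n = 4) and 1.55 ± 0.0172 (SD, n = 3), and the values overlapped. The difference of 0.07 was smaller than the SD of the WT animals. Reassigning the genotype labels in all 35 possible ways gave a permutation p of 0.314, where 0.0286 was the lowest reachable. Genes without a 2-fold lineage difference in untreated KO cultures could not enter this set. The score over it therefore cannot show whether KO cells stayed as far apart at such genes. With lineage genes taken from the untreated WT cultures alone, where KO cultures set no condition, the difference was -0.01 (exact permutation p = 0.886).

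The same contrast in untreated cultures of the same animals called 3 genes (0.0273%), all lower, and held 674 (6.14%) at an unadjusted p under 0.05. They were Ly6a (-4.56 ± 0.71, adjusted p = 0.00579), Inhba, a subunit of activin (adjusted p = 0.0141), and Sgk1, a salt-responsive kinase (-1.63 ± 0.27, adjusted p = 0.00642). Inhba was at 0 in every untreated iTreg KO library and averaged 3.64 CPM in untreated iTreg WT, so that its fitted interaction is not given. Under DFMO, Sgk1 and Inhba had interactions of -0.12 ± 0.22 and 0.06 ± 0.43. Untreated KO libraries were shallower, with totals of 2312481 to 2911716 in iTreg and 2226914 to 4143568 in Th17n. With DFMO the KO totals were 3406287 to 4528484 in iTreg and 3957830 to 4732039 in Th17n. The part of depth in the numbers of calls was not tested. All 21 genes called under DFMO had the same sign without it, 16 of them with an unadjusted p under 0.05, and Ly6a was called in both. Each of the 21 had the smaller interaction without DFMO, which is the direction that selection on the DFMO contrast favours. Haao, for instance, was 3.05 ± 0.54 with and 0.02 ± 0.28 without DFMO, its means being 20.6 to 30.8 CPM in the untreated groups against 0.761 to 4.76 with DFMO, and Armcx6 -1.61 ± 0.29 with and -0.16 ± 0.25 without.

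The direct test of DFMO against untreated cultures, a difference of the 2 interactions, called 0 genes in edgeR (0.0%). The smallest adjusted p was 0.148, for Haao (difference of 3.04 ± 0.61). At an unadjusted p under 0.05 this test held 430 genes (3.91%), and DESeq2 called 3. Counts were simulated without an animal effect, with changes in the iTreg DFMO KO libraries only. On these counts the test recovered 26.9% of 2-fold and 69.7% of 4-fold changes. In that setting, smaller differences between treated and untreated cultures would mostly have been missed.

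**Figure D5:**
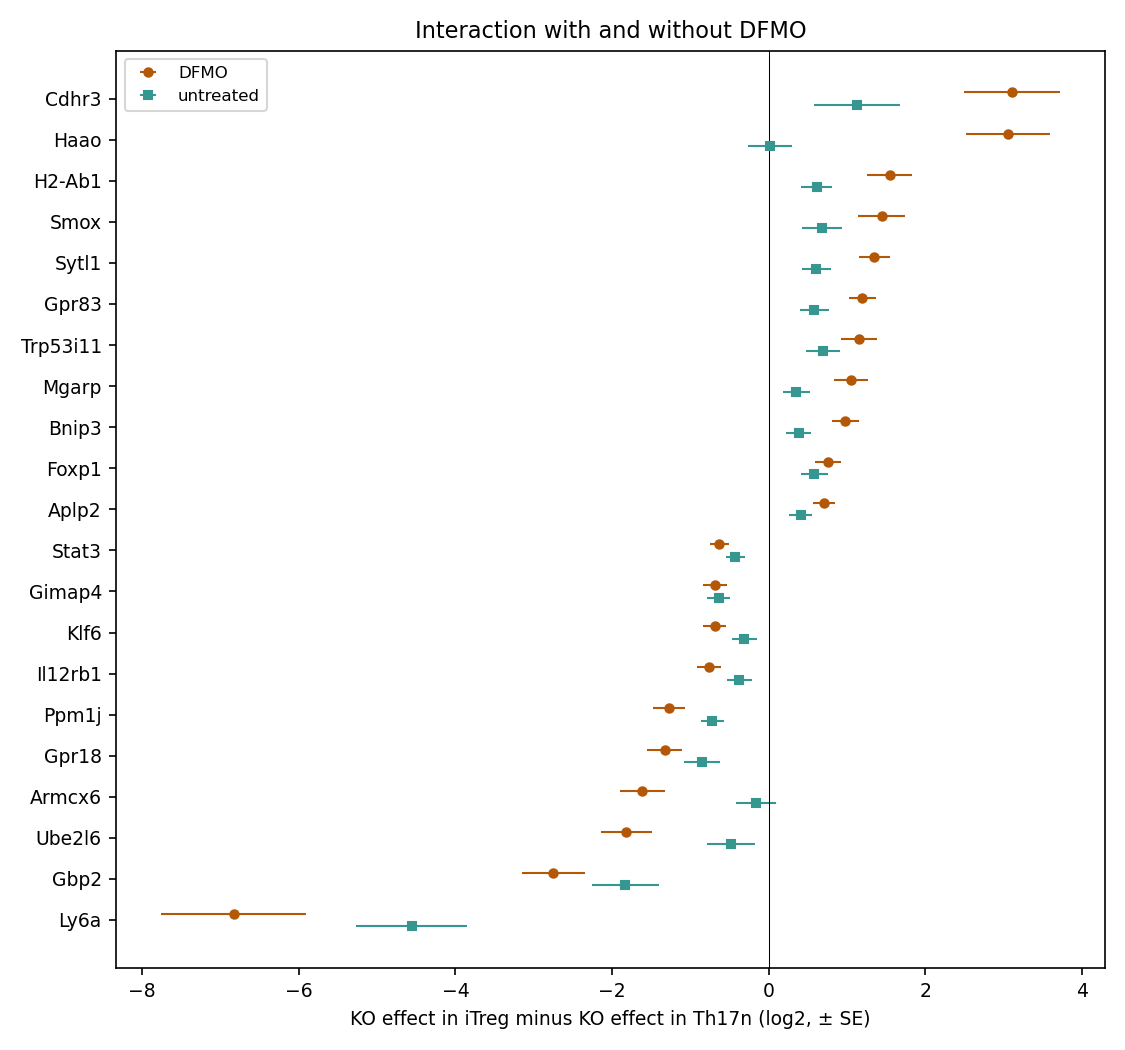
Interaction (KO effect in iTreg minus KO effect in Th17n, log2, bars ± SE) of the 21 genes called under DFMO, with DFMO (circles) and without (squares). All pairs lie on the same side of 0 and the DFMO value is farther from 0 in each. The test of the difference between treatments was called for none.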

How the data were processed

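Bulk RNA-seq of 28 libraries was deposited by the authors as 1 table of estimated counts and 1 table of TPM (counts adjusted for transcript length and library total) per gene. Both came from kallisto against GRCm38, per the submitters' processing notes, and the kallisto version is not given in the sources used here. The deposited estimated counts covered 20891 genes, and 67.2% were whole numbers within 0.001. Library totals were 2226914 to 4759290, and the deposited TPM summed to 863920 to 886579 per library. Groups came from the labels, and replicates are separate animals by their animal identifiers.

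Estimated counts were rounded and fitted with edgeR 4.0.16 (R 4.3.3) on all 28 libraries as 8 group means, with TMM scaling and filterByExpr (10985 genes kept). Quasi-likelihood tests gave Benjamini-Hochberg adjusted p over all tested genes, called under 0.05. All adjusted and unadjusted p-values in the text are from edgeR unless DESeq2 1.42.0 or limma 3.58.1 is named. Log2 CPM per library used a prior count of 2. Gene positions are from GENCODE M21, and promoters from RefSeq (GRCm38.p6).

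Each animal gave 4 libraries, so the labels pair the cultures. Correlations of the 2 DFMO cultures' deviations were -0.03 to 0.13 over the 7 animals. The fit with the animal as replicate block (15 residual degrees of freedom) is given beside the results it changed.

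The members, gene lists and rules were chosen with earlier results of these data known. Named genes were fixed ones (Kdm6b, Odc1, Il17a, Il17f, Il23r, Foxp3), up to 15 called each way with a mean of at least 10 CPM, filled to 10, up to 5 each way called in both cultures, and up to 4 called members per list. Some genes that these rules name are not reported here. Of 34 pathway and 12 marker lists with 793 entries, 778 entries matched. Alternatives were RLE scaling, DESeq2, no filter, 1 treatment alone, the block, limma on log2(TPM + 1) and log2(TPM + 0.1), and leaving out each library or animal. On the same simulated counts (10985 genes, no animal effect), the DFMO interaction recovered 47.8% of 2-fold and 81.8% of 4-fold changes with 6 false calls.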

Additional observations from a re-analysis of the deposited data

Results flagged for a closer look

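For 21 genes the KO effect differed between the 2 DFMO cultures by a test of the difference itself (edgeR interaction, adjusted p under 0.05). The log2 differences, iTreg minus Th17n, were 3.11 for Cdhr3, 3.05 for Haao, 1.55 for H2-Ab1, 1.44 for Smox, 1.35 for Sytl1, 1.20 for Gpr83, 1.15 for Trp53i11, 1.05 for Mgarp, 0.98 for Bnip3, 0.76 for Foxp1 and 0.71 for Aplp2. On the lower side they were -6.83 for Ly6a, -2.75 for Gbp2, -1.82 for Ube2l6, -1.61 for Armcx6, -1.33 for Gpr18, -1.27 for Ppm1j, -0.76 for Il12rb1, -0.69 for Klf6, -0.68 for Gimap4 and -0.63 for Stat3. Their levels and tests are given above.

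In 4 of 76 groups of 4 libraries, 1 library lay far from the other 3, by a gap above the critical value of Dixon's test. Chance flags about 1 in 20 such groups. Foxp1 was at 172 CPM in iTreg WT1 and at 216 to 219 CPM in the other 3 iTreg WT libraries. Aplp2 was at 113 CPM in Th17n WT3 against 124 to 126 CPM. Gpr18 was at 32.3 CPM in Th17n WT1 against 48.1 to 49.0 CPM. Cdhr3 was at 3.45 CPM in Th17n WT1 against 1.82 to 1.98 CPM.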

How the results depend on the processing

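All 21 genes kept the sign of their interaction in every alternative run. The count of 21 became 46 with the animal as a replicate block, 48 in DESeq2 and 99 with no filter, all of which held the 21, 32 on log2(TPM + 0.1) and 30 on log2(TPM + 1), which each held 14 of them, and 16 in the DFMO libraries alone, which held 11. With 1 library or animal left out it ranged from 7 to 37. The 455 iTreg calls ranged from 214 to 727 when 1 was left out, lowest without animal KO1 and highest without the iTreg WT2 library. Their split of 210 higher and 245 lower became 236 and 132 on log2(TPM + 1) and 265 and 138 on log2(TPM + 0.1). The 112 Th17n calls became 49 on log2(TPM + 1), 36 on log2(TPM + 0.1) and 230 with no filter, and ranged from 24 (without animal KO1) to 159 (without WT2). The 3 untreated interaction calls became 8 in DESeq2, 8 with the block, 27 with no filter and 6 in untreated libraries alone, and ranged from 0 to 8. The 0 calls for DFMO minus untreated became 3 in DESeq2, 1 on log2(TPM + 0.1), 1 on log2(TPM + 1) and 11 with no filter, and ranged from 0 to 1. Where fewer libraries entered, fewer degrees of freedom remained, and the counts fell in some of these fits and rose in others. The causes of the shifts were not tested.

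The lineage score difference was -0.00564 with genes from WT cultures alone and 0.05 to 0.10 with 1 animal left out. Signs turned for genes near 0. The Kdm6b interaction ranged from -0.20 to 0.10 with 1 library or animal left out and Odc1 from -0.30 to 0.11, and Odc1 was 0.0203 on log2(TPM + 0.1) and 0.0197 on log2(TPM + 1). Il17f ranged from -1.46 to 1.20 and was -0.39 on log2(TPM + 0.1) and -0.16 on log2(TPM + 1). No paired analysis was possible because genotype does not vary within an animal for KO against WT in 1 culture. With 3 or 4 animals a group the median SE of an interaction was 0.25 (log2), and 26.9% of 1.5-fold changes were recovered on simulated counts for the DFMO interaction.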

Other observations

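Several genes of cell communication and antigen presentation had an interaction that was called only with the animal as a block, and they are named here after their values were seen. Ccl20, a chemokine that Th17 cells secrete, averaged 4.47 and 0.936 CPM in iTreg WT and KO but 42.3 and 58.0 CPM in Th17n WT and KO. Its interaction was -2.61 with the block (edgeR adjusted p = 0.0368) and -2.59 without (adjusted p = 0.089). H2-T23, a non-classical MHC class I gene, averaged 261 and 134 CPM in iTreg WT and KO and 247 and 214 CPM in Th17n WT and KO. Its interaction of -0.77 with the block had an adjusted p of 0.0467 in edgeR, against 0.353 without it. Pml, an interferon-induced nuclear body protein, averaged 110 and 93.2 CPM in iTreg WT and KO and rose in Th17n from 203 ± 21.6 to 280 ± 16.5 CPM (edgeR adjusted p = 0.042). Tnfrsf9, the costimulatory receptor 4-1BB, went the other way, with 114 and 151 CPM in iTreg WT and KO and 121 and 85.0 CPM in Th17n WT and KO. Its interaction was 0.91 with the block (edgeR adjusted p = 0.0112).

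No member of the list of polycomb and H3K27 methylation or of the list of JmjC demethylases had a called interaction. Of 27 tested genes of polycomb and H3K27 methylation, 14 had a positive and 13 a negative interaction, with a median of 0.02. Of 19 tested JmjC demethylases, 12 had a positive and 7 a negative one, with a median of 0.10.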
